A study of Mus musculus with 6 samples.

Results

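Cytosolic ribosomal proteins are the protein components of the ribosome outside mitochondria. Their genes were taken by symbol: every row whose name follows the standard Rpl or Rps numbering, with an optional a, x or l at the end, together with Rplp0, Rplp1, Rplp2 and Rpsa. This gave 83 of the 56832 genes in the files, 51 of the large and 32 of the small subunit. RNA was sequenced from mouse monocytes of the peripheral blood in 2 groups of 3 libraries. The thrombocytopenic mice carried PF4cre-iDTR: the promoter of Pf4, a gene of megakaryocytes and platelets, drives Cre, which makes a diphtheria toxin receptor available in the cells where it acts. They received diphtheria toxin, and so did the control mice, which were wild type (WT). Genotype and platelet state therefore changed together and cannot be told apart. Whether Cre was active in the monocytes was not tested, and the sources used here give no strain or age. Since the labels name no separate animals for the replicates, the p-values cover the scatter of these libraries alone, and that scatter may be technical.

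A ribosome has a small subunit, which reads the messenger RNA, and a large subunit, which joins amino acids. Each takes up 1 copy of most of its proteins around ribosomal RNA, so cells keep the output of these genes matched. Most of these messages begin with a run of pyrimidines, the 5′ terminal oligopyrimidine (TOP) motif, through which mTOR signalling and the RNA-binding protein LARP1 govern their translation. In monocytes, as in other blood cells, ribosomal protein messages are among the abundant messages.

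The libraries held 37552029, 29883019 and 35730418 counts in the thrombocytopenic group and 24842319, 35955383 and 28654146 counts in the control group. Monocyte and macrophage markers were abundant: Csf1r, the receptor for macrophage colony-stimulating factor, averaged 1480 ± 4.71 CPM (counts scaled to a common library size) in thrombocytopenic and 1229 ± 18.8 CPM in control libraries (SD, n = 3 each). Of 9 such markers 6 were higher and 3 lower in the thrombocytopenic group. The lower ones were Fcgr1, Cd68 and Ly6c2, with log2 fold changes of −0.34, −0.30 and −0.49. The summed level of the 9 was 20880 to 21140 CPM in thrombocytopenic and 18450 to 18900 CPM in control libraries. Lyz2, which was higher, made up most of it, with means of 13698 CPM in thrombocytopenic and 11980 CPM in control libraries. The summed level of 10 neutrophil markers was 352.7 to 364.1 CPM in thrombocytopenic and 244.6 to 261.9 CPM in control libraries. Mmp8 made up most of it, with 322 ± 5.05 CPM in thrombocytopenic and 227 ± 7.21 CPM in control libraries (SD, n = 3 each). Of the 7 neutrophil markers tested, Mmp8 and Mmp9 were higher, Ngp was lower, and S100a8, S100a9, Camp and Ltf were not called. The summed level of 10 platelet markers was 1220 to 1286 CPM in thrombocytopenic and 1012 to 1058 CPM in control libraries, nearly all of it from Pf4 and Ppbp, which were both higher. The other 4 platelet markers tested were lower: Clec1b averaged 0.725 CPM in thrombocytopenic and 3.53 CPM in control libraries, Nrgn 0.0179 and 3.69 CPM, Itga2b 0.343 and 0.863 CPM, and Gp9 0 and 0.452 CPM, in the same order. The 7 B cell markers summed to 13.42 to 15.15 CPM in thrombocytopenic and 11.06 to 13.08 CPM in control libraries. Markers of T and NK cells (at most 0.502 CPM in thrombocytopenic and 1.14 CPM in control libraries), erythroid cells (0.0533 and 2.42 CPM) and basophils and mast cells (0.636 and 8.84 CPM) were low, and Cd3d, Cd3e, Cd3g, Ncr1, Alas2 and Slc4a1 were at 0 in all 6 libraries. The part of these other cell types in the results that follow was not tested.

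Ribosomal protein genes of both subunits were slightly and broadly higher in monocytes of thrombocytopenic mice. Of 80 members that passed a filter on low counts, 68 (85%) were higher at an adjusted p under 0.05 by edgeR's quasi-likelihood test, and 0 were lower. At an unadjusted p under 0.05, 1 member was lower, Rpl10a, and DESeq2 and limma-voom called 0 lower. Over all 12488 genes tested, 45.1% were called in either direction, 22.4% higher and 22.7% lower. The median log2 fold change was 0.16 over the members and 0.00 over all genes tested, with a median of 1.12-fold over the called members and quartiles of 1.09 and 1.14-fold. Libraries of a group were close to each other, with a common biological coefficient of variation of 2.68%. In bulk samples such as these, more of these messages per cell and more cells rich in them cannot be told apart.

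The subunits are given separately here. In the large subunit 39 of 48 tested members were higher (81.2%), with a median log2 fold change of 0.16 and quartiles of 0.12 and 0.19. In the small subunit 29 of 32 were higher (90.6%), with a median of 0.15 and quartiles of 0.11 and 0.19. All 3 thrombocytopenic libraries lay above all 3 control libraries for 38 large and 26 small subunit members, 64 of 80 together, against 25.2% of all genes tested in that direction and 51.3% in either. The difference between the subunits was not tested.

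Large subunit genes held 1.37, 1.31 and 1.35% of the counts in the thrombocytopenic libraries, and 1.20, 1.23 and 1.21% in the control libraries. The groups did not overlap, and the means were 1.34 ± 0.031% in thrombocytopenic and 1.22 ± 0.0143% in control libraries (SD, n = 3 each), a ratio of 1.10. Small subunit genes held 1.04, 0.993 and 1.02% in the thrombocytopenic libraries, and 0.904, 0.929 and 0.920% in the control libraries. These groups did not overlap either, with means of 1.02 ± 0.0239% in thrombocytopenic and 0.918 ± 0.0127% in control libraries and a ratio of 1.11. The counts of large over small subunit genes stood at 1.31, 1.32 and 1.32 in thrombocytopenic and 1.33, 1.33 and 1.32 in control libraries. This balance overlapped between the groups, at 1.317 ± 0.00476 in thrombocytopenic and 1.325 ± 0.00652 in control libraries. Among the thrombocytopenic libraries the second had the smallest shares of both subunits and the first the largest, and the second was the lowest of its group for 56 of 80 tested members. Among the control libraries the first had the smallest shares and was the lowest for 45 members. Within each group the share of all members followed the order of total counts. From most to fewest counts it was 2.408, 2.365 and 2.299% in thrombocytopenic libraries 1, 3 and 2. In control libraries 2, 3 and 1 it was 2.161, 2.134 and 2.107%. Control library 2 had 35955383 counts and thrombocytopenic library 2 had 29883019. The part of depth in these shares was not tested. The exact 95% binomial interval of the share of all members reached at most 0.00565 percentage points to either side in any library, which covers counting error only and is far smaller than the spread between libraries.

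**Figure D1:**
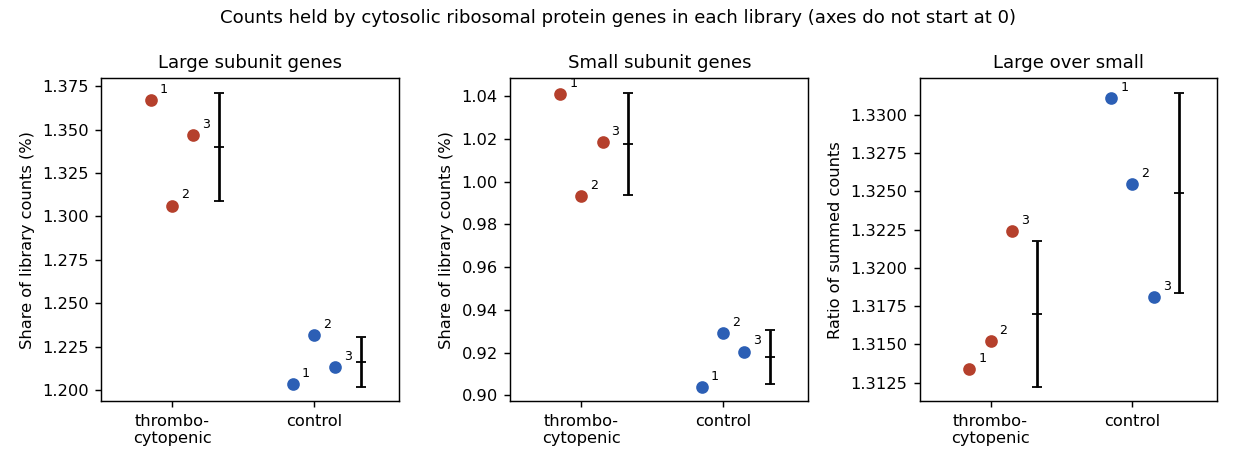
Share of each library's counts held by large and by small subunit genes (percent, left and middle) and the ratio of the summed counts (right), with 1 point per library numbered by replicate and the mean with its SD beside each group. Thrombocytopenic libraries lie at 1.31 to 1.37% (large) and 0.993 to 1.04% (small), above control libraries at 1.20 to 1.23% and 0.904 to 0.929%, while the ratios of the groups overlap.

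The members fell into a well-counted group and a few sparse rows. Of the tested members 74 averaged at least 50 CPM, between 78.3 and 1038 CPM, and 66 of these were higher. Their log2 fold changes spanned −0.07 to 0.27. Among the 3692 other genes at or above 50 CPM, 40.0% were higher and 25% lower, with a median log2 fold change of 0.04. Ribosomal protein genes are also short: coding sequences of these 74 ran from 75 to 1257 bases, with a median of 448.5 over the members with a length. Of 393 other genes with at least 50 CPM and under 600 coding bases, 44.3% were higher and 20.4% lower, with a median of 0.07. Per kilobase of coding sequence, the levels among the well-counted members were led by Rpl41 (4368 CPM per kb in thrombocytopenic and 4099 in control libraries), whose product is a very small basic peptide, and Rps29 (2454 and 2233 CPM per kb, in the same order), a small zinc-binding protein. Rpl10a was the lowest of them, at 149 CPM per kb in thrombocytopenic and 156 in control libraries. Untranslated bases are left out of these lengths, which raises the value most for the shortest genes.

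**Figure D2:**
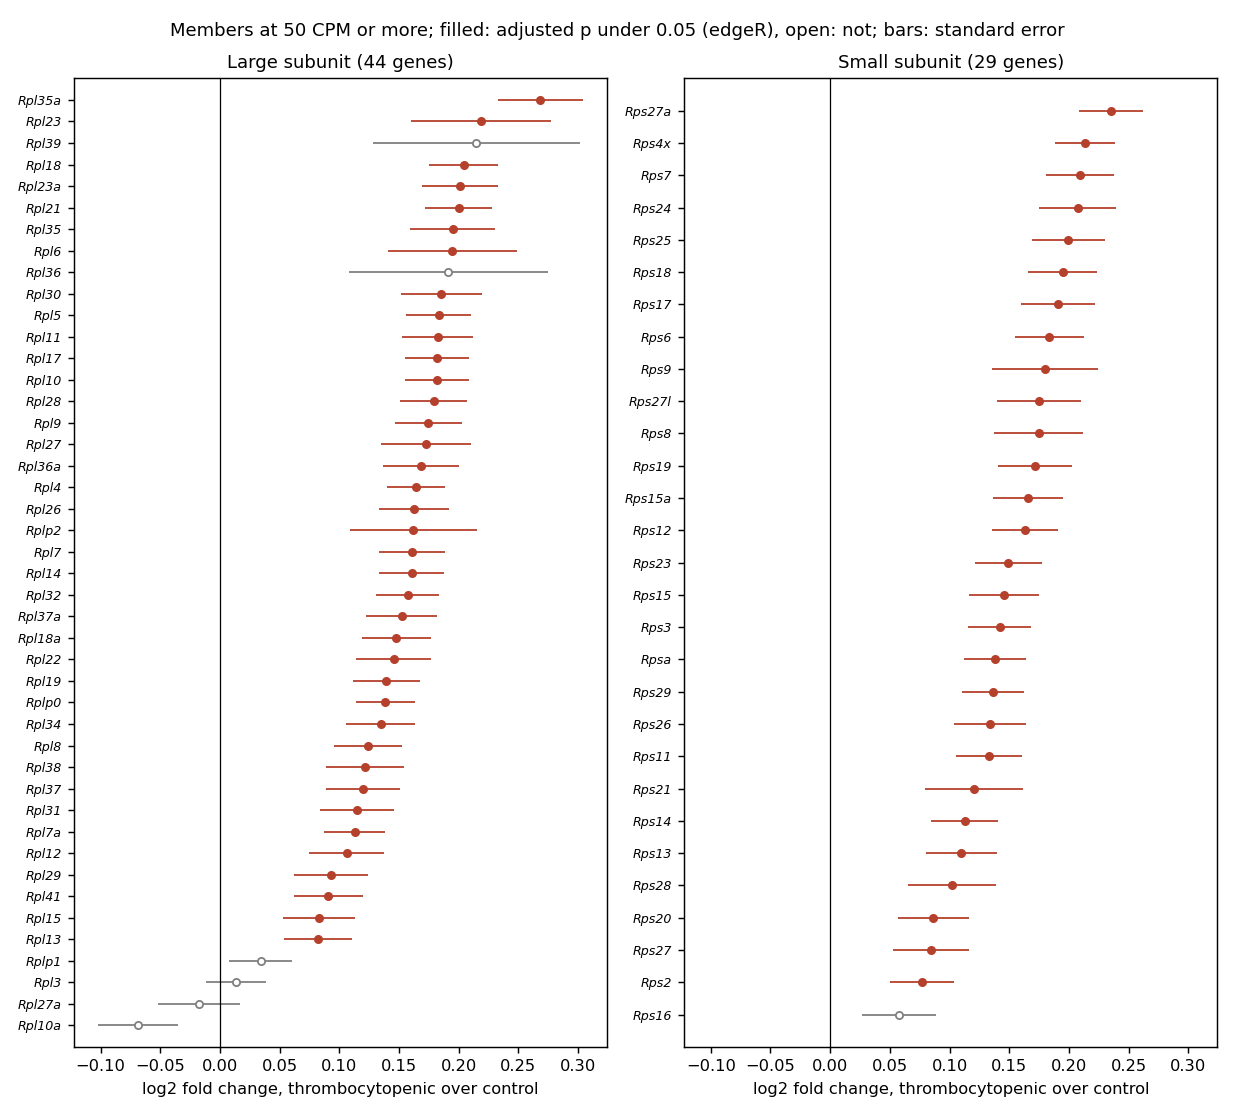
Log2 fold change (thrombocytopenic over control, x axis) with its standard error for each large subunit gene (left) and small subunit gene (right), 73 genes drawn among those averaging at least 50 CPM. Filled points passed an adjusted p under 0.05 (66 of 73 genes), open points did not, and values span −0.07 to 0.27.

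In the body of the large subunit, Rpl35a had the largest fold change among the well-counted members. It had 137, 122 and 127 CPM in thrombocytopenic libraries, against 103, 111 and 106 CPM in control libraries. All thrombocytopenic libraries were above all control libraries, by a log2 fold change of 0.27 ± 0.036 (SE, adjusted p = 4.18e-08). In humans loss of 1 copy of this gene is a cause of Diamond-Blackfan anaemia, a failure of red cell production. Rpl4, a protein that lines the exit tunnel of the nascent chain, had 1129, 1068 and 1096 CPM in thrombocytopenic libraries, against 984, 980 and 973 CPM in control libraries. The groups were again apart, by 0.16 ± 0.024 on the log2 scale (adjusted p = 1e-07). Rpl23, which lies at the face that meets the small subunit, had 516, 453 and 508 CPM in thrombocytopenic libraries, against 403, 439 and 427 CPM in control libraries. Its log2 fold change of 0.22 had a wider error (SE 0.058, adjusted p = 0.0237), the second thrombocytopenic and the second control library came close to each other, and the call was lost without the third thrombocytopenic library (0.20, adjusted p = 0.0638). Rpl5 and Rpl11 form with 5S ribosomal RNA the particle that can bind the p53 regulator MDM2 in other cells. Rpl5 averaged 336 ± 7.73 CPM in thrombocytopenic and 296 ± 6.87 CPM in control libraries, and Rpl11 341 ± 16.9 and 300 ± 8.40 CPM (SD, n = 3 each). Both had a log2 fold change of 0.18 (adjusted p = 1.17e-07 and 2.27e-06).

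The stalk of the large subunit, built from Rplp0 and the acidic proteins Rplp1 and Rplp2, recruits and activates the elongation factors. Rplp0, the base of the stalk, had 783, 783 and 763 CPM in thrombocytopenic libraries, against 723, 693 and 699 CPM in control libraries, 0.14 higher on the log2 scale (SE 0.025, adjusted p = 5.26e-06). Rplp1 had 430.5, 453.5 and 429.8 CPM in thrombocytopenic libraries, against 428.3, 426.9 and 427.7 CPM in control libraries. The groups did not overlap, yet the log2 fold change was 0.03 ± 0.026 and did not pass (adjusted p = 0.308). Rplp2 had 279, 268 and 281 CPM in thrombocytopenic libraries, against 234, 269 and 236 CPM in control libraries. The second control library reached the level of the thrombocytopenic ones, and the call (0.16 ± 0.053, adjusted p = 0.0367) was lost without any 1 of the thrombocytopenic libraries, at adjusted p = 0.132, 0.0668 and 0.12.

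In the small subunit, Rps27a encodes ubiquitin fused to a ribosomal protein. It had 433, 439 and 462 CPM in thrombocytopenic libraries, against 370, 382 and 381 CPM in control libraries. No library crossed between the groups, and the log2 fold change was 0.24 ± 0.027 (adjusted p = 1.3e-10). Rps4x, the X-linked copy of the S4 protein, had 653, 628 and 633 CPM in thrombocytopenic libraries, against 548, 540 and 562 CPM in control libraries. It was likewise apart, at 0.21 ± 0.025 (adjusted p = 3.79e-10). Rps7 averaged 244 ± 4.11 CPM in thrombocytopenic and 211 ± 6.24 CPM in control libraries, Rps24 averaged 549 ± 31.6 and 475 ± 12.6 CPM, and Rps25 averaged 285 ± 15.4 and 248 ± 5.75 CPM (SD, n = 3 each). Their log2 fold changes were 0.21, 0.21 and 0.20. In humans mutations of RPS7 and RPS24 are also known in Diamond-Blackfan anaemia, and RPS25 is known for its part in initiation at viral internal entry sites. Rps6, the protein that S6 kinase phosphorylates downstream of mTOR, averaged 240 ± 5.54 CPM in thrombocytopenic and 211 ± 7.05 CPM in control libraries, 0.18 higher on the log2 scale (adjusted p = 4.32e-07). Rpsa, which outside the ribosome is also known as a laminin receptor, had 708, 673 and 695 CPM in thrombocytopenic libraries, against 619, 648 and 619 CPM in control libraries, 0.14 higher (adjusted p = 1.14e-05).

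Rps27 and its close paralogue Rps27l encode versions of 1 small subunit protein. Rps27l had 88.1, 84.2 and 87.1 CPM in thrombocytopenic libraries, against 78.8, 74.2 and 77.3 CPM in control libraries, and was 0.18 higher on the log2 scale (SE 0.035, adjusted p = 4.09e-05). Rps27 had 150, 150 and 141 CPM in thrombocytopenic libraries, against 142, 133 and 141 CPM in control libraries. Its groups overlapped and its log2 fold change was 0.08 (SE 0.032, adjusted p = 0.0266). The call of Rps27 was lost without the first thrombocytopenic (0.07, adjusted p = 0.118), second thrombocytopenic (0.07, adjusted p = 0.0986) or second control library (0.05, adjusted p = 0.262). It was also lost in DESeq2 (adjusted p = 0.0666) and with upper quartile scaling (adjusted p = 0.12). The difference between the paralogues was not tested. Rps2, which lies near the messenger entry site, was 0.08 higher (adjusted p = 0.0153) and lost its call without the first or second thrombocytopenic or second control library (adjusted p = 0.0795, 0.0998 and 0.0601).

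Among the 74 well-counted members, 8 did not pass. Rpl3, which lies near the site of peptide bond formation, had 514, 492 and 501 CPM in thrombocytopenic libraries, against 496, 502 and 495 CPM in control libraries. Its groups overlapped fully, with a log2 fold change of 0.01 ± 0.025 (adjusted p = 0.707), at a level where the standard error matched that of called members. Rpl10a, the protein of the mobile L1 stalk where used transfer RNA leaves, had 93.4, 98.1 and 97.2 CPM in thrombocytopenic libraries, against 104, 97.7 and 101 CPM in control libraries. Its log2 fold change of −0.07 ± 0.034 was 1 of only 2 below 0 among tested members and did not pass (adjusted p = 0.0946); without the second control library it passed as lower (−0.10, adjusted p = 0.0329). Rpl27a, the other one, was at −0.02 (adjusted p = 0.717). Rps16, which lies at the head of the small subunit, was at 0.06 (adjusted p = 0.129), and without the third thrombocytopenic library it passed as higher (0.08, adjusted p = 0.0441).

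Of the members that did not pass, Rpl39 and Rpl36 differed in size as much as called members but varied more. Rpl39, a small protein of the exit tunnel, had 147, 120 and 141 CPM in thrombocytopenic libraries, against 113, 119 and 120 CPM in control libraries. The second thrombocytopenic library lay at the control level, and the log2 fold change of 0.21 ± 0.087 did not pass (adjusted p = 0.116); it passed without that library (0.30, adjusted p = 6.66e-10) and, with all libraries, in DESeq2 (adjusted p = 0.0403), in limma-voom (0.00049) and with no filter on low counts (0.000163). Rpl36 had 95.3, 89.2 and 101 CPM in thrombocytopenic libraries, against 76.4, 91.9 and 81.2 CPM in control libraries. Here the second control library reached into the thrombocytopenic range, and the value of 0.19 ± 0.083 (adjusted p = 0.126) passed without it (0.27, adjusted p = 7.58e-06) and, with all libraries, in limma-voom (0.00184) and with no filter on low counts (8.05e-06).

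**Figure D3:**
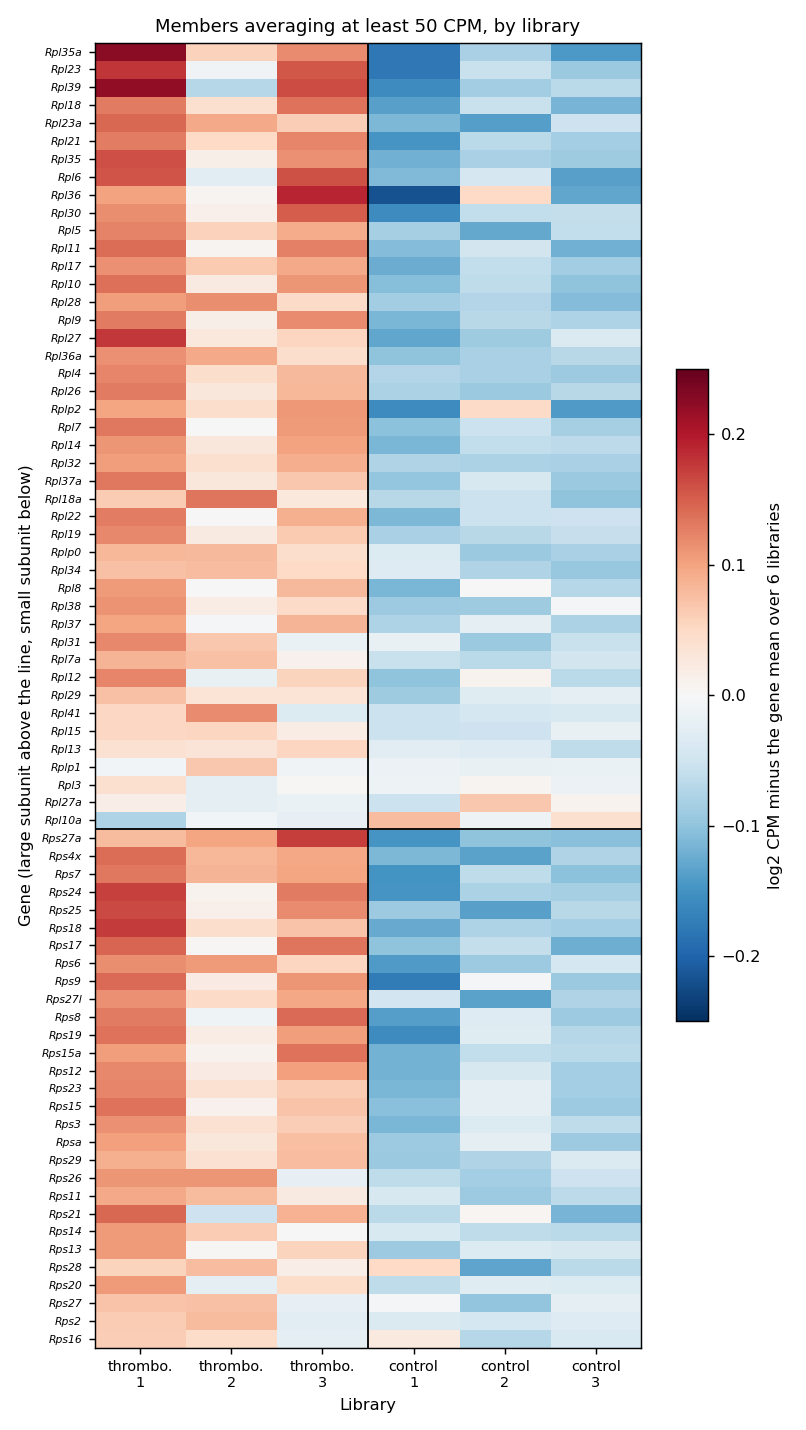
Log2 CPM of 73 members averaging at least 50 CPM, minus the gene's mean over the 6 libraries (colour), with 1 column per library, thrombocytopenic libraries on the left, and genes ordered by fold change within each subunit. Nearly all rows are above their mean in the first and the third thrombocytopenic library and below it in the control libraries, the second thrombocytopenic library is paler for many genes, and Rpl10a runs the other way.

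The sparse rows need separate reading. Rps10 had 2.52, 2.08 and 2.12 CPM in thrombocytopenic libraries, against 1.77, 1.499 and 1.57 CPM in control libraries, from 232 and 143 counts in all. Its log2 fold change of 0.49 ± 0.18 (adjusted p = 0.0258) fell to 0.26 with an adjusted p of 0.0854 when the counts of its pseudogene rows were added, and the call was also lost in DESeq2 (adjusted p = 0.0807) and without the first thrombocytopenic, the second control or the third control library (adjusted p = 0.143, 0.0993 and 0.0632). Rpl39l, a retrotransposed copy of Rpl39 known for its role in the testis, had 1.47, 1.21 and 1.57 CPM in thrombocytopenic libraries, against 0.643, 1.08 and 0.941 CPM in control libraries. Its log2 fold change of 0.64 ± 0.24 (adjusted p = 0.0239) was the largest of the tested members, rests on 147 and 82 counts, and did not pass in DESeq2 (adjusted p = 0.0741) or without the first or the third thrombocytopenic or the first control library (adjusted p = 0.0676, 0.0942 and 0.132).

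The other 4 sparse members that were tested did not pass. Rpl13a, known for its part in silencing inflammatory messages in human monocytes, had 13.8, 13.6 and 14.6 CPM in thrombocytopenic libraries, against 13.7, 12.7 and 11.8 CPM in control libraries (log2 fold change 0.14, adjusted p = 0.0986). Rps4l had 6.40, 5.73 and 6.37 CPM in thrombocytopenic libraries, against 5.74, 6.77 and 5.85 CPM in control libraries, with a log2 fold change of 0.00 (adjusted p = 0.982). Rpl24 was listed with 48 counts over the thrombocytopenic and 36 over the control libraries, and Rpl6l with 52 and 39. For Rpl24, Rps10 and Rpl13a, which encode core ribosomal proteins, the listed levels stand far under the 78.3 CPM of the least abundant well-counted member; how reads of these genes were assigned was not tested, so their levels should not be read as expression. The paralogues Rpl10l (0 counts), Rpl3l (6 counts in thrombocytopenic and 3 in control libraries) and Rpl32l (1 and 2 counts) failed the filter and were not tested. Rpl10l and Rpl3l are known from testis and from muscle and heart.

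Of the 68 called members, 54 kept the call when any 1 of the 6 libraries was left out, and 53 kept it under all 17 alternative settings. Beside those already given, the calls lost without 1 library were of small size. Rpl12 (main adjusted p = 0.00627) lost it without the first thrombocytopenic library (adjusted p = 0.0674) and Rpl41 without the second (adjusted p = 0.133). Rpl29 and Rps20 lost it without the first thrombocytopenic (adjusted p = 0.0571 and 0.183) or first control library (0.1 and 0.0726). Rpl13 lost it without the third library of the thrombocytopenic (adjusted p = 0.0548) or of the control group (0.094), and Rpl15 without the first thrombocytopenic, first control or second control library (0.0602, 0.0812 and 0.0768). Rps21 and Rps28 each lost it in 4 of the 6 fits, with adjusted p of 0.05 to 0.119 without the first or the third library of either group for Rps21 and of 0.0545 to 0.291 without the first or second thrombocytopenic or the second or the third control library for Rps28. Rps28 also lost its call in DESeq2, and upper quartile scaling ended the calls of Rplp2, Rps2, Rps20, Rps27, Rps28, Rpl13, Rpl15, Rpl29 and Rpl41.

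Start regions were available from RefSeq (build GRCm38.p6) for 61 members, and these were searched for the pyrimidine run that marks a TOP message, a C followed by at least 4 pyrimidines that begins within 5 bases of the annotated start on the gene's strand. Some genes had several listed starts (3 for Rpl35a and 2 for Rps24). A match at any of them counted, and the start with the longest run is shown. The lines below show 30 bases, 10 before the start and 20 from it, with that run in capitals. They cover members with large, intermediate and no differences, and 2 without a run there.
Rpl35a: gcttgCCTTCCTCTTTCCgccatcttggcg
Rps24: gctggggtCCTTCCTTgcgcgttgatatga
Rps6: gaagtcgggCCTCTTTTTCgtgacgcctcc
Rps15a: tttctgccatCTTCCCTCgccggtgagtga
Rpl15: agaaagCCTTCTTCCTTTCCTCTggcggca
Rpl27a: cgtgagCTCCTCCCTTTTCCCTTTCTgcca
Rpl4: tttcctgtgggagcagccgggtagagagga
Rps4x: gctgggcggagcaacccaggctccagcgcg
They lie at chr16:33056472-33056501 (plus strand, Rpl35a), chr14:24490668-24490697 (plus, Rps24), chr4:86857348-86857377 (minus, Rps6), chr7:118116128-118116157 (minus, Rps15a), chr14:18270967-18270996 (minus, Rpl15), chr7:109519185-109519214 (plus, Rpl27a), chr9:64173377-64173406 (plus, Rpl4) and chrX:102189372-102189401 (minus, Rps4x). Rpl35a, with the largest well-counted fold change, has a run of 13 bases, while Rpl27a, with a log2 fold change of −0.02, has one of 20 bases.

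A run was found in 29 of the 61 members (47.5%), against 21.2% of 27025 genes in the same table, and one that begins exactly at the annotated start in 14 (23.0%), against 3.01%. Of 28 tested members with the run 25 were higher, with a median log2 fold change of 0.15, and of 30 without it 27 were higher, with a median of 0.16. A missing run says only that it is not within these letters. In the 250 bases before and 50 after the start, on both strands, CCGGAAGT, the letters bound by ETS family factors such as GABP, were found in 12 members (19.7%), against 4.31% of genes. The E-box CACGTG, the letters bound by MYC with MAX, was found in 6 (9.84%), against 8.09%. TATAAA was found in 7 (11.5%), against 15.7%. These matches are descriptions of the letters.

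Genes that share the TOP motif or carry out elongation but are not members were mostly higher too. Over all genes tested 22.4% were higher and 22.7% lower. Of 20 tested, 18 were higher and 0 lower, also at an unadjusted p under 0.05 and in DESeq2 and limma-voom, with a median log2 fold change of 0.12. Nap1l1, a histone chaperone, averaged 188 ± 3.90 CPM in thrombocytopenic and 159 ± 3.76 CPM in control libraries (0.24, adjusted p = 5.71e-10). Naca, the alpha subunit of the nascent chain complex, averaged 238 ± 7.78 and 206 ± 1.99 CPM (0.21), Eef1g of elongation factor 1 351 ± 13.0 and 305 ± 7.66 CPM (0.20), and Tpt1 1121 ± 45.9 and 1012 ± 23.5 CPM (0.15), each in the same order (SD, n = 3 each). Eif3l (0.07, adjusted p = 0.0536) did not pass. Initiation factors were higher in 16 of 29 and lower in 1, Eif2b2, with a median of 0.10; the lower call was lost in DESeq2 and without the second library of either group. Eif4g2, a scaffold for initiation without the cap-binding protein, averaged 4250 ± 58.4 CPM in thrombocytopenic and 3395 ± 65.6 CPM in control libraries (0.32, adjusted p = 2.61e-18). Eif1, which guards the choice of start codon, was also 0.32 higher, and Eif4a1, the helicase of the cap complex, 0.20.

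Genes for making ribosomes were more mixed. Shares over all genes tested were 22.4% higher and 22.7% lower, and 40.0% and 25% among genes other than members at or above 50 CPM. Of 14 genes of ribosomal RNA synthesis by RNA polymerase I, 5 were higher and 0 lower (0 at an unadjusted p under 0.05, 0 in DESeq2 and limma-voom), with a median of 0.07, led by Taf1d (0.29) and Polr1d (0.25). Of 32 genes of ribosomal RNA processing, 18 were higher and 3 lower, with a median of 0.12. Nop58, a core protein of the particles that methylate ribosomal RNA, averaged 80.6 ± 2.85 CPM in thrombocytopenic and 63.4 ± 2.48 CPM in control libraries (0.35, adjusted p = 2.77e-11), Riok2, a kinase of small subunit maturation, was 0.33 higher, and Noc4l, Utp15 and Wdr43 were lower; without the third thrombocytopenic library this list had 1 lower gene. Of 27 genes of large subunit assembly and export, 15 were higher and 1 lower, with a median of 0.15. Gnl3 was 0.35 and Rrs1 0.30 higher, while Eif6, which keeps the large subunit from joining too early, was lower at −0.08 (adjusted p = 0.0244), a call lost in DESeq2 and without the third thrombocytopenic or the second control library.

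Regulators of these genes showed no shared direction, with 8 of 21 higher (38.1%), 4 lower and a median of 0.01. The share higher was 22.4% over all genes tested and 40.0% among genes other than members at or above 50 CPM. Without the second thrombocytopenic or the third control library 5 regulators were higher. Myc, a driver of ribosome production, had 24.5, 25.6 and 24.9 CPM in thrombocytopenic and 21.05, 22.6 and 22.6 CPM in control libraries (0.17, adjusted p = 0.00754). Max, the partner of MYC on DNA, averaged 101 ± 1.95 CPM in thrombocytopenic and 123 ± 5.29 CPM in control libraries (−0.29, adjusted p = 8.4e-11). Larp1 was lower at −0.08 (adjusted p = 0.00509), the zinc finger factor Yy1 was 0.27 higher, and Mtor was at 0.01 (adjusted p = 0.858). Proteins of the mitochondrial ribosome, which form a separate machine, were higher in 16 of 77 tested (20.8%), close to the 22.4% higher over all genes. Only 4 were lower, a smaller share than the 22.7% lower over all genes, and 57 were not called. The median over these proteins was 0.04. The count of these that were higher was 9 in DESeq2, 8 without the first thrombocytopenic library and 10 without the second control library, and the count lower was 2, 1 and 2 in DESeq2, without the second thrombocytopenic and without the third control library. Mrpl45, with the smallest p of the list, averaged 62.4 ± 3.21 CPM in thrombocytopenic and 54.5 ± 2.95 CPM in control libraries (0.20, adjusted p = 7.63e-05). Among the lower ones, Mrps2 averaged 36.7 ± 1.07 CPM in thrombocytopenic and 42.3 ± 0.805 CPM in control libraries (−0.20, adjusted p = 0.000156).

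**Figure D4:**
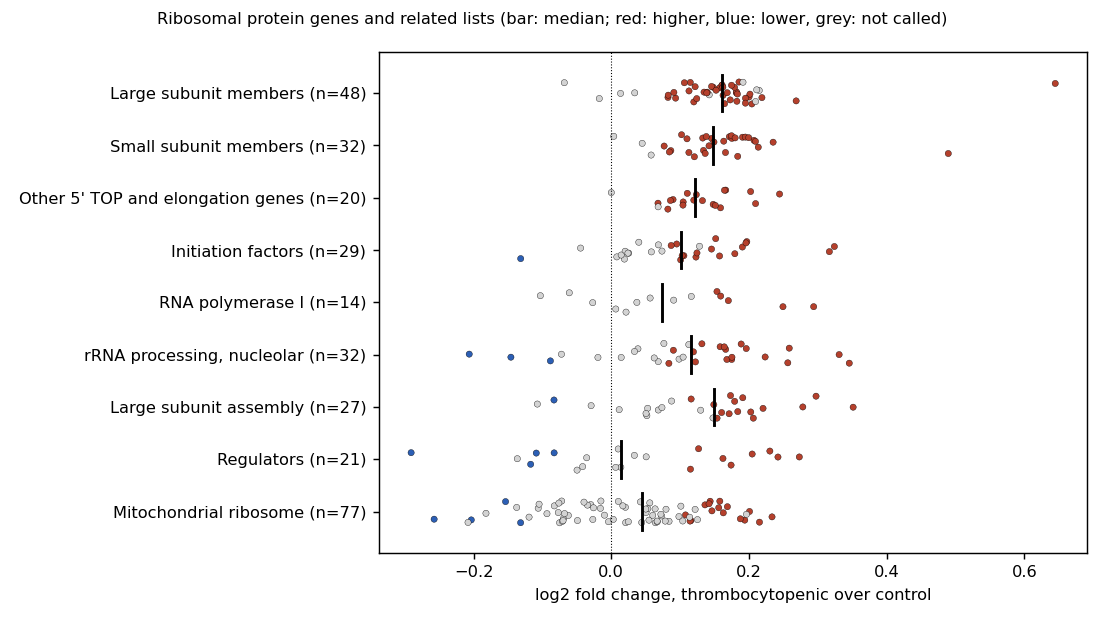
Log2 fold change (thrombocytopenic over control, x axis) of every tested gene of the 2 subunits and of 7 related lists, 1 point per gene, red where higher, blue where lower and grey where not called, with a bar at each list's median. Medians are 0.16 and 0.15 in the subunits, 0.12 in other TOP and elongation genes, 0.01 in regulators and 0.04 in the mitochondrial ribosome.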

How the data were processed

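Polyadenylated RNA was sequenced with a stranded kit, per the labels' protocols. The files deposited by the authors hold whole-number, unnormalized counts for each gene, 1 file per library. Tools named in the submitters' processing notes are featureCounts from Subread 2.0.1, Salmon 1.5.2, STAR 2.7.9a and fastp 0.23.1. The sources used here give neither genome build nor annotation, nor whether counting used strand or reads with several matches. Ribosomal protein genes have many near-identical processed pseudogenes, so single members are uncertain.

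Counts were tested over all genes with edgeR 4.0.16 in R 4.3.3 (TMM scaling, filterByExpr with a minimum count of 10 and a total of 15, robust quasi-likelihood test, group only, two-sided). Of 56832 genes, 12488 passed. P-values were adjusted by Benjamini-Hochberg over all genes tested, at 0.05. The SE is the size of the log2 fold change divided by the root of the F statistic. CPM is scaled by TMM factors (0.9943 to 1.002), except marker sums and shares, which use library totals. Within groups, libraries differed beyond sampling noise (chi-square per degree of freedom of 1.89 to 3.24). Lengths are coding lengths of GENCODE M21 transcripts, matched by symbol.

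The members and lists were chosen with earlier results of these data known. Named members are, in each subunit, the 6 with the largest and the 6 with the smallest fold change, the 5 highest and 5 lowest in CPM, fixed names such as the stalk proteins and paralogues, and the members that did not pass; a few such genes are left out of the text. From related lists the 4 genes with the smallest p were considered; others named were chosen after their values were seen. Alternatives were other scalings, DESeq2 1.42.0, limma-voom (limma 3.58.1), other filters and thresholds, pseudogene counts added, a replicate block and each library left out. The steps were also run on simulated data with planted changes. Recovery was required there only for changes larger than that of any tested member. The run therefore does not bear on calls of small size.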

Additional observations from a re-analysis of the deposited data

How the results depend on the processing

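The number of members called higher was 68 with RLE factors, with library totals, with TMM factors computed without members, and with the replicate block, 65 in DESeq2, 70 in limma-voom, 59 with upper quartile scaling and 55 at an adjusted p under 0.01. With pseudogene counts added it was 67. Leaving out 1 library gave 57 to 65 members higher and 0 to 1 lower, medians of 0.145 to 0.179 in the large and 0.126 to 0.175 in the small subunit, and 4992 to 5427 genes called in all. Upper quartile scaling moved the median of all genes to −0.02 and the share of calls that were higher to 42.7%, against 49.6%; it called 1 member lower, Rpl10a, as did the fit without the second control library. Whether replicate numbers pair the libraries was not settled. With 3 libraries per group, deviations from the group mean depend on each other, so the correlations here cannot decide it. Deviations from the group mean correlated at −0.0383, −0.0892 and −0.0127 over all genes for libraries with the same number. Over the 80 tested members these were −0.135, −0.613 and 0.151. Between libraries with different numbers the members gave −0.589 to 0.548. The highest were thrombocytopenic 2 with control 1 (0.548) and thrombocytopenic 3 with control 2 (0.543). What these libraries share was not tested. The replicate block called 5398 genes against 5626. Values near 0 changed sign. Rpl27a ranged from −0.0475 to 0.0103 over the fits without 1 library, and Rpl3 from −0.0031 to 0.0292. Rps4l ranged from −0.0396 to 0.0884 over the same fits. With upper quartile scaling Rpl3 was −0.0105 and Rps4l −0.0204, and Rps4l was −0.00176 with library totals and −0.00344 with at least 50 counts. Their cause was not tested. In the related lists, upper quartile scaling gave 10 mitochondrial ribosomal proteins higher against 16, and 2 lower genes against 1 in large subunit assembly and in initiation. At an adjusted p under 0.01, 5 regulators against 8 and 7 mitochondrial ribosomal proteins against 16 were higher, and the lower genes were 1 against 3 in ribosomal RNA processing, 0 against 1 in large subunit assembly and in initiation, and 2 against 4 in the mitochondrial ribosome. Rows under about 3 CPM rest on few counts, and the part of depth in their values was not tested.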

Other observations

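Ribosomal proteins and paralogues outside the symbol rule did not all share the direction of the members, and these were chosen after values were seen. Rps3a1, the mouse gene of a core small subunit protein, had 390, 357 and 374 CPM in thrombocytopenic libraries, against 320, 333 and 341 CPM in control libraries (log2 fold change 0.17, adjusted p = 2.73e-06). Fau, whose product carries the small subunit protein eS30, was 0.09 higher (adjusted p = 0.0127) and Rack1, a scaffold on the small subunit, 0.12 higher (adjusted p = 3.08e-05). Rpl22l1, a paralogue of Rpl22, had 19.6, 20.4 and 21.4 CPM in thrombocytopenic libraries, against 23.7, 23.1 and 23.9 CPM in control libraries. It was lower, at −0.20 (adjusted p = 0.00275), while Rpl22 itself, with 163 ± 7.38 CPM in thrombocytopenic and 148 ± 3.45 CPM in control libraries (SD, n = 3 each), was 0.15 higher (adjusted p = 0.000122); the difference between them was not tested. Rpl36al was called lower (−1.26, adjusted p = 0.00578) on 28 counts over the thrombocytopenic and 58 over the control libraries, far under the well-counted members; how its reads were assigned was not tested, so its level should not be read as expression. Without the third control library only 1 of the lower calls of Rpl22l1 and Rpl36al was left.

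The files list 322 pseudogene rows of ribosomal proteins, 174 of them with counts. They summed to 1474, 1716 and 1265 counts in thrombocytopenic libraries and to 1319, 1121 and 1367 counts in control libraries, or 39.2, 57.4 and 35.4 CPM and 53.1, 31.2 and 47.7 CPM in the same order. The groups overlapped. The second thrombocytopenic and the first control library, the lowest of their groups in members, were the highest of their groups in pseudogene CPM.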
